A study of Mus musculus with 6 samples.

Results

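The mRNAs of 10 genes that coat or span the membrane of synaptic vesicles were compared between hippocampi with and without Dicer1 removed from adult forebrain neurons. The genes were chosen by name: the synapsins Syn1, Syn2 and Syn3, the vesicle glycoproteins Sv2a, Sv2b and Sv2c, synaptophysin (Syp), synaptoporin (Synpr) and the synaptogyrins Syngr1 and Syngr3. All 10 were found among the 25896 gene symbols of the deposited tables, and all 10 passed the filter on low counts that left 17405 genes for testing. Where a gene had several transcripts, the one with the largest count, averaged over the 6 libraries, stood for it.

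RNA came from whole hippocampus of male C57BL/6 mice aged 3 months, all of them Dicer1 flox/flox and all given tamoxifen 3 weeks before they were killed. In Dicer1-ifKO mice there was in addition CaMKIIa-creERT2, a tamoxifen-activated recombinase under a promoter of forebrain excitatory neurons. The mice called WT carried no recombinase, so loss of Dicer1 and presence of the recombinase cannot be told apart. Each genotype had 3 libraries, and every library held pooled RNA of 3 mice, so the spread given below is between pools. A number of 12 mice per genotype is also stated, against 9 in these libraries.

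Synaptic vesicles store transmitter in the nerve terminal. Synapsins are phosphoproteins on the outer face of the vesicle that tether vesicles to each other and to actin, and their phosphorylation by calcium- and cAMP-dependent kinases frees vesicles for release. SV2 proteins are transporter-like membrane glycoproteins that bear on the readiness of vesicles for calcium-triggered fusion. Synaptophysin, synaptoporin and the synaptogyrins are small tetraspan membrane proteins. Dicer1 cuts microRNA precursors into mature microRNAs, which pair through their seed with sites in the 3′ UTR of mRNAs and lower their stability and translation.

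Seed matches were looked up first, because they are the sequences through which a loss of microRNAs could reach these mRNAs. Of 18 microRNAs abundant or studied in brain, 16 were found in the RefSeq table (GRCm38.p6), each with a seed (bases 2 to 8) of its own. Their 7-base complements were searched on the sense strand of the 3′ UTRs of 13884 tested genes. The members held 35 matches, of which 24 lay inside the transcripts as deposited. The difference comes from Sv2c, whose 3′ UTR is longer in GENCODE release M21 than in the deposited table: 2 of its 13 matches lay inside the deposited transcript. The deposited Syn2 transcript is instead longer than its M21 model (3343 against 2708 nt of exon). Its sequence beyond that model was not searched. Syn1 (UTR of 1033 nt) and Syn3 (407 nt) held no match, Syp (1424 nt) held 1, Synpr (1478 nt) and Syngr3 (1139 nt) held 2 each, Syn2 (783 nt) and Syngr1 (3425 nt) 3 each, Sv2b (2701 nt) 5 and Sv2a (1605 nt) 6. The median over all searched genes was a UTR of 1067 nt with matches to 2 of the 16 microRNAs. Counted in this way, by microRNA, Sv2b had 4 and Sv2c 10, and the other members the same numbers as above.

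The sequences printed here belong to Sv2a and Synpr. Their values did not overlap between genotypes with either TMM scaling or the authors' normalised values. Sv2a was higher and Synpr lower in Dicer1-ifKO, and both hold a match to miR-181a-5p. The microRNAs are printed with the seed in capitals, the UTR windows with the seed match in capitals, all 5′ to 3′.
miR-181a-5p: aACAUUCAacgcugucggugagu
miR-218-5p: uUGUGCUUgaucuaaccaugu
miR-128-3p: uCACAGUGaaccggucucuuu
miR-137-3p: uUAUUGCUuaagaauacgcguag
Sv2a, match to miR-181a-5p, chr3:96195323-96195344, plus strand: gcccagtgtgTGAATGTgcgac
Sv2a, match to miR-218-5p, chr3:96194882-96194903, plus strand: gcaggtccgaAAGCACAaggag
Sv2a, match to miR-128-3p, chr3:96193947-96193968, plus strand: atggcaggcaCACTGTGagacc
Sv2a, match to miR-137-3p, chr3:96194366-96194387, plus strand: gctggggagtAGCAATAaacct
Synpr, match to miR-181a-5p, chr14:13614074-13614095, plus strand: tagagaatgtTGAATGTaaatc

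The match to miR-181a-5p (TGAATGT) was present in the UTR of 5 of the 10 members, in 4 of them inside the deposited transcript, and in 17.0% of all searched genes. Of the 16 microRNAs it matched the most members, and let-7a-5p matched 0. These shares take no account of UTR length. Sv2b and Sv2c are among the 5, and 16.9% and 1.2% of searched UTRs were as long as theirs or longer. The match to miR-218-5p (AAGCACA) was in 4 members and 14.5% of all genes, that to miR-128-3p (CACTGTG) in 2 and 21.2%, and that to miR-137-3p (AGCAATA) in 2 and 9.9%. Of the 35 matches, 8 were followed by an A, the base that lengthens a seed match to its strongest form, and 3 of these 8 were in Sv2a. A match describes letters in a sequence and is not a measured site of binding.

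The libraries and labels were checked before the members. Counts over the representative transcripts summed to between 11832791 and 20677846 per library, with WT replicate 1 the shallowest. That library stood apart on the first principal component (-19.42 against -0.27 to 8.66, 32.5% of the variance) and its deviations had the strongest relation with transcript length (Spearman's rho -0.267 over 16759 genes, which are not independent of each other, against -0.111 to 0.14 in the others). Dicer1 mRNA, counted on a transcript that spans the whole gene, was 55.6, 62.0 and 55.8 CPM (counts scaled to a common library total, with edgeR's TMM factors) in WT and 58.2, 62.9 and 58.0 in Dicer1-ifKO, and does not check the deletion. Esr1, the oestrogen receptor whose hormone-binding part creERT2 carries in mutated form, was 3.26 to 4.78 CPM in WT and 10.1 to 13.7 in Dicer1-ifKO, higher in every library labelled as carrying it. Camk2a, whose promoter drives the recombinase, was 3279 to 3393 CPM in WT and 3497 to 3713 in Dicer1-ifKO. It was higher in every Dicer1-ifKO library, as were 7.99% of all genes. Its log2 fold change of 0.11 did not pass (SE 0.05, edgeR adjusted p 0.42). Neuronal markers were abundant: 10 pyramidal neuron genes summed to 2099 to 2246 CPM in WT and 2045 to 2221 in Dicer1-ifKO, and 9 inhibitory neuron genes to 943 to 1035 and 974 to 1052.

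No member passed the test between the genotypes, and the fitted changes were small. The largest was a log2 fold change of -0.14 for Synpr, and 6 members had a positive and 4 a negative value. With p-values from edgeR's quasi-likelihood test, adjusted by Benjamini-Hochberg over all genes, 0 of 10 members lay below 0.05, against 0.161% of all genes. At an unadjusted p below 0.05 the count was 1 of 10 (Synpr), against 10.4% of all genes, and DESeq2 called 0, giving no adjusted p for Sv2c. The members' median log2 fold change was 0.03 (0.00 with an offset for transcript length in each library), against 0.00 over all genes tested. The median of their absolute log2 fold changes was 0.05, against 0.08 over all genes. In a bulk sample, fewer cells of a type and less RNA per cell cannot be told apart.

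**Figure D1:**
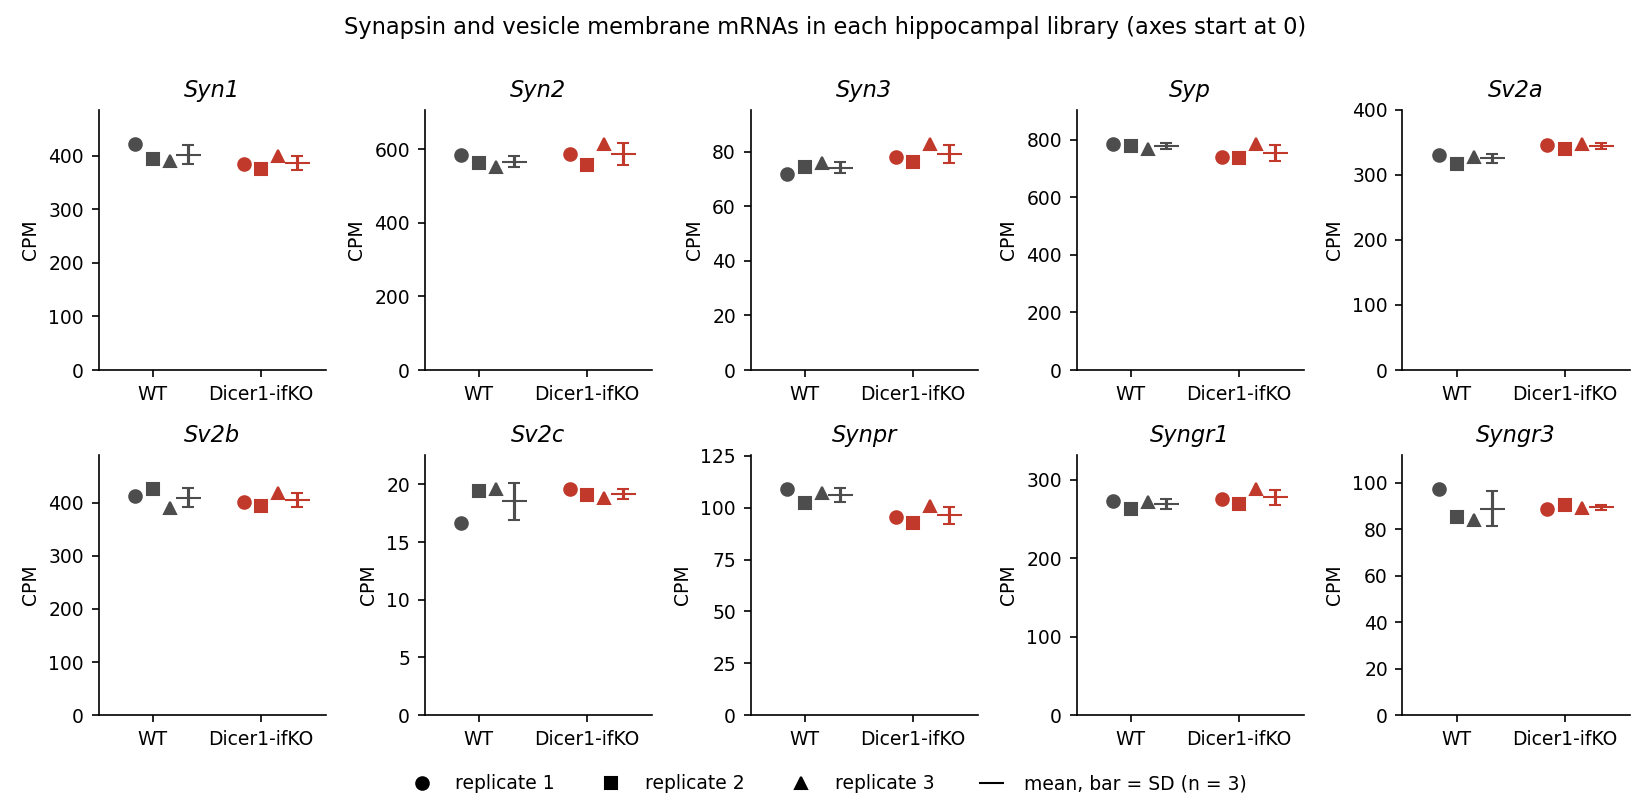
CPM after TMM scaling (y axes from 0) of the 10 genes in each library, WT in grey and Dicer1-ifKO in red, with marker shapes for replicates and the mean ± SD of 3 libraries beside the points. The genotypes lie close together in every panel; the Synpr values of Dicer1-ifKO (92.8 to 101) lie below those of WT (102 to 109).

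Among the synapsins, Syn1, the synapsin of most mature terminals (chromosome X, 20860511 to 20921004, minus strand, GRCm38), had 422, 393 and 391 CPM in WT and 384, 375 and 400 in Dicer1-ifKO. The ranges overlapped through Dicer1-ifKO replicate 3. Its log2 fold change was -0.06 (SE 0.05, edgeR adjusted p 0.735), with a 95% interval, not adjusted for the number of genes, of -10.0% to 2.82%. Without WT replicate 1 the log2 fold change of Syn1 was -0.02. Syn2, which is also widespread in terminals (chromosome 6, 115134902 to 115282626, plus strand), had 583, 562 and 553 CPM in WT and 588, 557 and 615 in Dicer1-ifKO. These ranges overlapped too, and the log2 fold change was 0.05 (SE 0.05, edgeR adjusted p 0.757, interval -3.07% to 10.9%), or 0.02 without Dicer1-ifKO replicate 3.

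Syn3, the scarcest synapsin here and one that is also made by immature neurons (chromosome 10, 86055125 to 86498856, minus strand), had 71.8, 74.6 and 75.8 CPM in WT and 78.1, 76.4 and 83.0 in Dicer1-ifKO. All Dicer1-ifKO values lay above all WT values after TMM scaling. With the authors' scaling factors, WT replicate 3 and Dicer1-ifKO replicate 2 were nearly tied. The rounding of those factors does not resolve their order. The log2 fold change of 0.09 (SE 0.05) did not pass (edgeR adjusted p 0.563), and its interval ran from -1.03% to 15.3%; without Dicer1-ifKO replicate 3 it was 0.06. WT replicate 1 was the lowest Syn3 library and also the highest Syn1 library.

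Of the SV2 proteins, Sv2a, the isoform of nearly all terminals and the binding site of the antiepileptic levetiracetam (chromosome 3, 96181151 to 96195521, plus strand), had 331, 317 and 328 CPM in WT and 346, 340 and 348 in Dicer1-ifKO. The Dicer1-ifKO values all lay above the WT values, also with the authors' normalised values. The log2 fold change was 0.08 (SE 0.04, edgeR adjusted p 0.522), with an interval of -0.42% to 12.7%. Sv2a is the member with the most seed matches found inside its deposited transcript, 4 of which are printed above. Sv2b, with 5 matches there, had a log2 fold change of -0.02. Of the 2 members without a match, Syn3 had 0.09 and Syn1 -0.06. The part of seed matches in any of these values was not tested. Beside the higher Syn3 and Sv2a values, the summed level of the 8 astrocyte markers was also higher in every Dicer1-ifKO library (3421.9 to 3593.5 CPM in WT, 3623.7 to 3773.7 in Dicer1-ifKO), although none of the 8 passed, 4 were positive and 4 negative, and their median log2 fold change was -0.02; its part in those values was not tested.

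Sv2b, an isoform of many excitatory neurons (chromosome 7, 75114897 to 75309262, minus strand), had 413, 426 and 390 CPM in WT and 401, 394 and 419 in Dicer1-ifKO. The libraries of both genotypes were interleaved, and the log2 fold change was -0.02 (SE 0.05, edgeR adjusted p 0.937, interval -7.54% to 5.68%). With the length offset it was -0.06, and it was positive without WT replicate 2 (0.01). Sv2c, best known from basal ganglia (chromosome 13, 95959443 to 96132577, minus strand), was the scarcest member, at 16.7, 19.4 and 19.6 CPM in WT and 19.6, 19.1 and 18.8 in Dicer1-ifKO. Its lowest value was that of WT replicate 1, without which its log2 fold change turned from 0.04 (SE 0.08, edgeR adjusted p 0.914) to -0.02. With 196 to 385 counts per library its interval was the widest, -9.09% to 16.0%.

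In the synaptophysin family, Syp, whose protein is among the most abundant of the vesicle and is a common marker of terminals (chromosome X, 7638471 to 7653256, plus strand), had 786, 779 and 768 CPM in WT and 740, 736 and 785 in Dicer1-ifKO. Replicates 1 and 2 of Dicer1-ifKO lay below all WT libraries and replicate 3 among them. The log2 fold change was -0.05 (SE 0.04, edgeR adjusted p 0.777, interval -9.06% to 3.27%). It was -0.07 without Dicer1-ifKO replicate 3, -0.03 without Dicer1-ifKO replicate 2 and -0.01 with counts summed over transcripts. Of its exon bases, 33.8% are shared with the antisense model Gm14703 on the other strand, and the strand setting of the counting is not given in the sources used here, so reads of these models cannot be told apart; Gm14703 itself had a mean of 520.7 CPM in WT.

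Synpr, the close relative of Syp that is prominent in mossy fibre terminals of dentate granule cells and in some interneurons (chromosome 14, 13284780 to 13615459, plus strand), had 109, 102 and 107 CPM in WT and 95.5, 92.8 and 101 in Dicer1-ifKO. All Dicer1-ifKO values lay below all WT values, also with the authors' normalised values. The log2 fold change of -0.14 (SE 0.05) had the smallest p of the members but did not pass (unadjusted p 0.0130, adjusted p 0.323 in edgeR). Its interval of -15.5% to -2.20% was the only one of the 10 that lay on one side of 0. In fits with 1 library left out, the log2 fold change ranged from -0.17 to -0.11. The 8 dentate granule cell markers summed to 978 to 1060 CPM in WT and 951 to 1023 in Dicer1-ifKO. Their median log2 fold change was -0.09, 1 of them fell (Calb1, calbindin, log2 fold change -0.27, SE 0.05, edgeR adjusted p 0.0323) and none passed in the other direction. Plk5, of the same list, had 24.6, 21.2 and 25.5 CPM in WT and 27.4, 27.9 and 32.4 in Dicer1-ifKO, higher in every library (log2 fold change 0.31, SE 0.08, edgeR adjusted p 0.176). None of the 9 inhibitory neuron markers passed, with a median of 0.05. The part of either cell type in the Synpr values was not tested.

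Of the synaptogyrins, Syngr1, the main neuronal synaptogyrin (chromosome 15, 80091344 to 80119501, plus strand), had 274, 262 and 272 CPM in WT and 276, 270 and 288 in Dicer1-ifKO. The ranges overlapped, with a log2 fold change of 0.05 (SE 0.04, edgeR adjusted p 0.777, interval -3.23% to 10.1%), which was 0.02 without Dicer1-ifKO replicate 3. Syngr3, another neuronal form (chromosome 17, 24685092 to 24689955, minus strand), had 97.3, 85.2 and 84.0 CPM in WT and 88.4, 90.5 and 89.1 in Dicer1-ifKO. WT replicate 1 was above all other libraries, and WT replicates 2 and 3 were below all Dicer1-ifKO libraries. The log2 fold change was 0.01 (SE 0.06, edgeR adjusted p 0.961, interval -6.92% to 9.42%), and it was 0.08 without WT replicate 1.

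**Figure D2:**
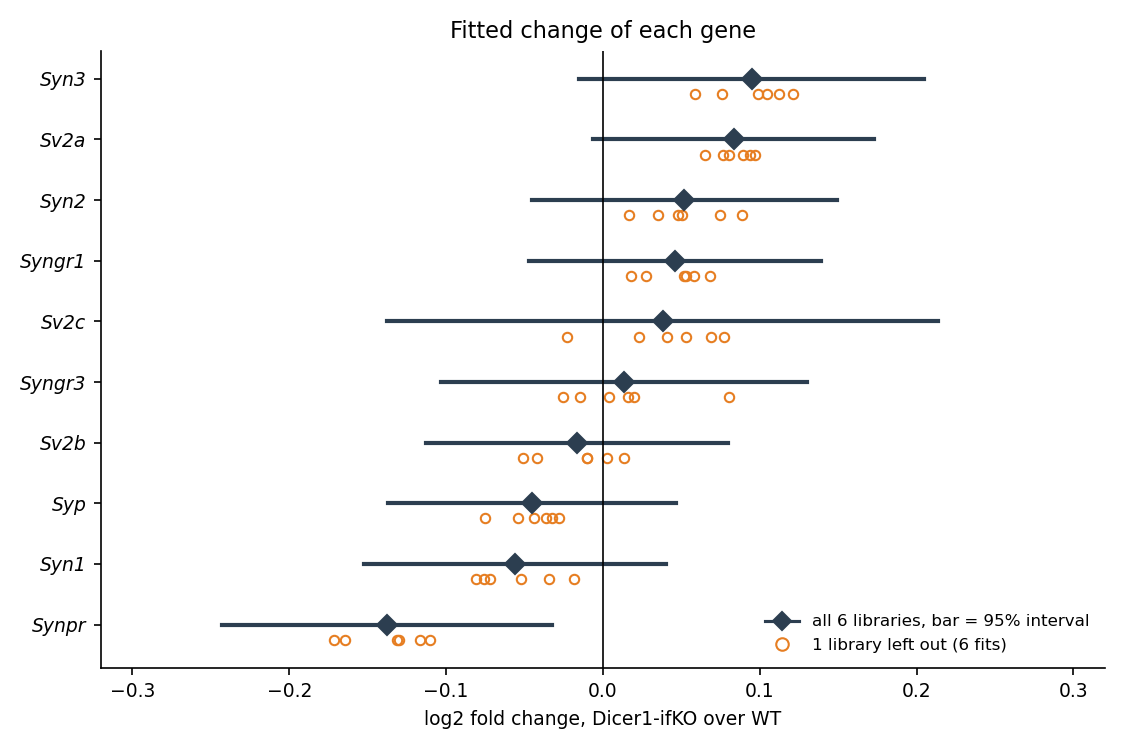
Log2 fold change of each gene, Dicer1-ifKO over WT (x axis). Diamonds with bars are the fit of all 6 libraries with its 95% interval, and open circles the 6 fits with 1 library left out. Synpr, at -0.14, is the lowest; the circles of Sv2b, Sv2c and Syngr3 lie on both sides of 0.

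Over the whole set, 3 members had groups that did not overlap. Of the members, 2 of 10 were higher in every Dicer1-ifKO library (Syn3 and Sv2a), against 7.99% of all genes. In the other direction, 1 of 10 was lower in every Dicer1-ifKO library (Synpr), against 8.07% of all genes. Under the authors' normalised values the count was 2 of 10 (16.2% of all genes in either direction). Syn3, nearly tied between genotypes there, was left out of it. Leaving out a library can only add to this count. Without Dicer1-ifKO replicate 3, the deepest library, it was 5 of 10 (27.4% of all genes), Syn1 and Syp being then lower as well. Without Dicer1-ifKO replicate 2 it was also 5 of 10 (25.0% of all genes), Syn2 and Syngr1 being then higher.

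Levels among the genes spanned a wide range, and the order of the means was the same in both genotypes. Per kilobase of exon, WT libraries had 300.1 ± 3.63 CPM of Syp (SD, n = 3), 169 ± 4.63 of Syn2 and 123 ± 5.4 of Syn1. Sv2a (75.0 ± 1.70 CPM per kilobase) and Sv2b (74.2 ± 3.30) were followed by Syngr1 (64.4 ± 1.42), Syngr3 (45.2 ± 3.75), Synpr (41.8 ± 1.41), Syn3 (31.4 ± 0.86) and Sv2c (4.36 ± 0.38). The WT values of Sv2a and Sv2b overlapped, as did those of Syngr3 and Synpr, and all other neighbours in this order were apart in every WT library. As counted, the mean of Syp was 1.77 times that of Syn2, and that of Syn3 7.20 times that of Sv2c. The place of Syp holds only as far as its counts exclude reads of Gm14703, which was not tested. In total CPM, Syp exceeded 99.5% of the tested genes and Sv2c 48.1%. In Dicer1-ifKO the same quantity was 291 ± 10.4 for Syp, 175 ± 8.71 for Syn2, 118 ± 3.83 for Syn1, 79.5 ± 1.00 for Sv2a, 73.3 ± 2.33 for Sv2b and 4.51 ± 0.10 for Sv2c.

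**Figure D3:**
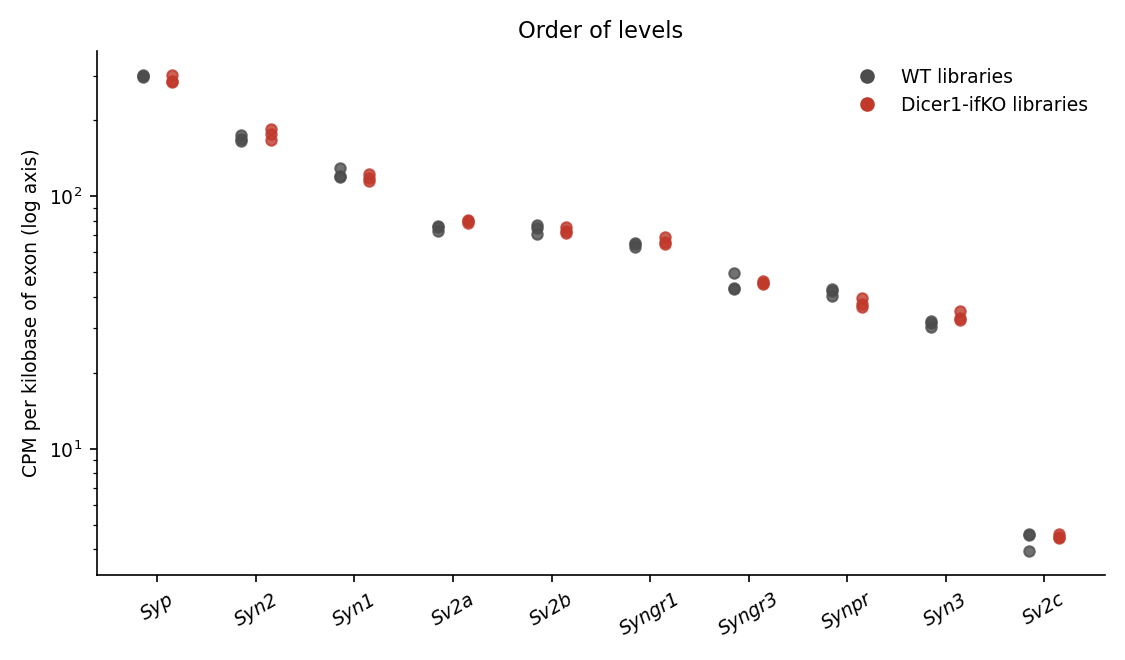
CPM per kilobase of exon (log y axis) of the 10 genes, ordered by their WT mean, with each library as a point (WT grey, Dicer1-ifKO red). Syp is highest at about 300.1, Sv2c lowest at 4.36, and the genotypes overlap or nearly touch for each gene.

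Ratios between relatives were taken within each library, where the scaling between libraries cancels. The count of Syn1 per count of Syn2 was 0.724, 0.699 and 0.707 in WT and 0.654, 0.673 and 0.650 in Dicer1-ifKO. Every Dicer1-ifKO value was lower, a difference of -0.11 on the log2 scale between means of -0.49 ± 0.03 and -0.60 ± 0.03 (SD, n = 3). Syn1 per Syn3 was 5.88, 5.27 and 5.15 in WT and 4.92, 4.91 and 4.82 in Dicer1-ifKO, again lower in every Dicer1-ifKO library (log2 difference -0.15).

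Synpr per Syp was 0.139, 0.131 and 0.139 in WT and 0.129, 0.126 and 0.128 in Dicer1-ifKO (log2 difference -0.09). Each of these 3 ratios had a two-sided exact permutation p of 0.1, the smallest that 3 libraries against 3 can give, and an adjusted p of 0.267 over the 8 ratios computed. The share of all gene pairs whose ratios do not overlap was not computed; of single genes, 7.99% were higher and 8.07% lower in every Dicer1-ifKO library. The other 5 ratios (Syn2 to Syn3, Sv2a to Sv2b, Sv2a to Sv2c, Sv2b to Sv2c and Syngr1 to Syngr3) overlapped between genotypes. The ratio of Sv2a to Sv2b was the nearest of them to separating, at 0.802, 0.744 and 0.840 in WT and 0.862, 0.862 and 0.830 in Dicer1-ifKO.

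**Figure D4:**
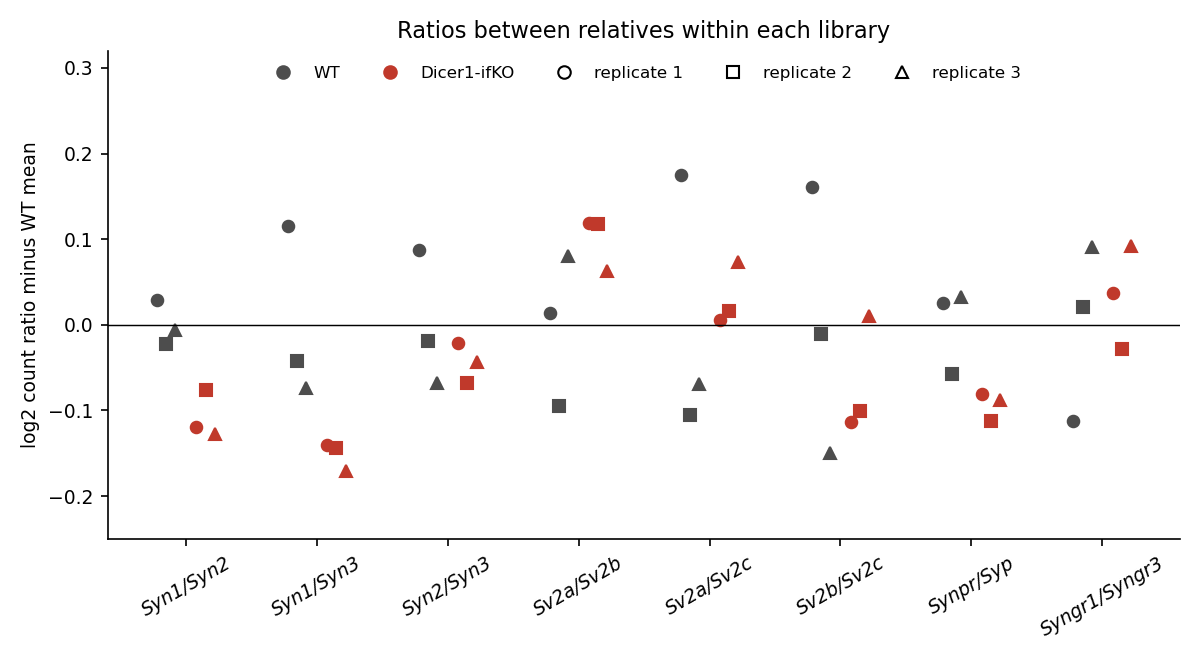
Log2 ratio of counts between related genes in each library, minus the WT mean of that ratio (y axis), for 8 pairs (x axis); grey is WT, red Dicer1-ifKO, shapes are replicates. The red points lie below all grey points for Syn1/Syn2, Syn1/Syn3 and Synpr/Syp.

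The deposited tables list 32 transcripts of these genes, many of which share reads. In the test over all transcripts, 0 of 32 were called, against 0.0777% of all 60500 transcripts tested, and the lowest adjusted p was 0.345 (edgeR with Benjamini-Hochberg adjustment). At an unadjusted p below 0.05 there were 2 of 32, against 9.44% of all transcripts; both were long Synpr models, Synpr-001 (log2 fold change -0.15, SE 0.05) and Synpr-002 (-0.16, SE 0.06), which share most of their reads. The shorter Synpr models that end before the 3′ end of the gene were closer to 0, Synpr-005 at -0.06 (SE 0.10), Synpr-003 at -0.07 (SE 0.09) and Synpr-004 at -0.12 (SE 0.08). The difference between long and short models was not tested. Among the other genes, the models that differed from the representative in their counts had log2 fold changes between -0.06 for Syngr3-002 (SE 0.13) and 0.22 for Syn3-006 (SE 0.19).

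Syn2 has a model, Syn2-202, that stops short of the 3′ end of the representative. Its counts were 89.6%, 91.4% and 90.1% of those of the representative in WT and 91.4%, 91.2% and 90.6% in Dicer1-ifKO. Syngr1-002, which also ends upstream of the 3′ end of the gene, had 9.27%, 8.73% and 8.80% of the count of Syngr1-001 in WT and 9.17%, 9.68% and 9.85% in Dicer1-ifKO. Both sets overlapped between genotypes.

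In short Syp models, which lie in the 5′ part of the gene and overlap each other, the library that stands apart was the lowest. Syp-002 had 20.98%, 25.2% and 23.3% of the count of Syp-001 in WT and 25.1%, 24.1% and 23.5% in Dicer1-ifKO. WT replicate 1 was the lowest library in each of the 5 short Syp models, for example 14.8% for Syp-003 against 16.5% to 17.6% elsewhere. Their log2 fold changes were 0.00 to 0.02, against -0.06 (SE 0.05) for Syp-001 in the same fit. Over all members, 19 models had a mean count of 50 or more and differed by over 1% from the representative. Of these, 10 were lowest in WT replicate 1, the 5 of Syp included. Others went the other way: Syn3-005 was highest there, at 91.5% of the representative against 88.3% to 89.6% elsewhere.

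**Figure D5:**
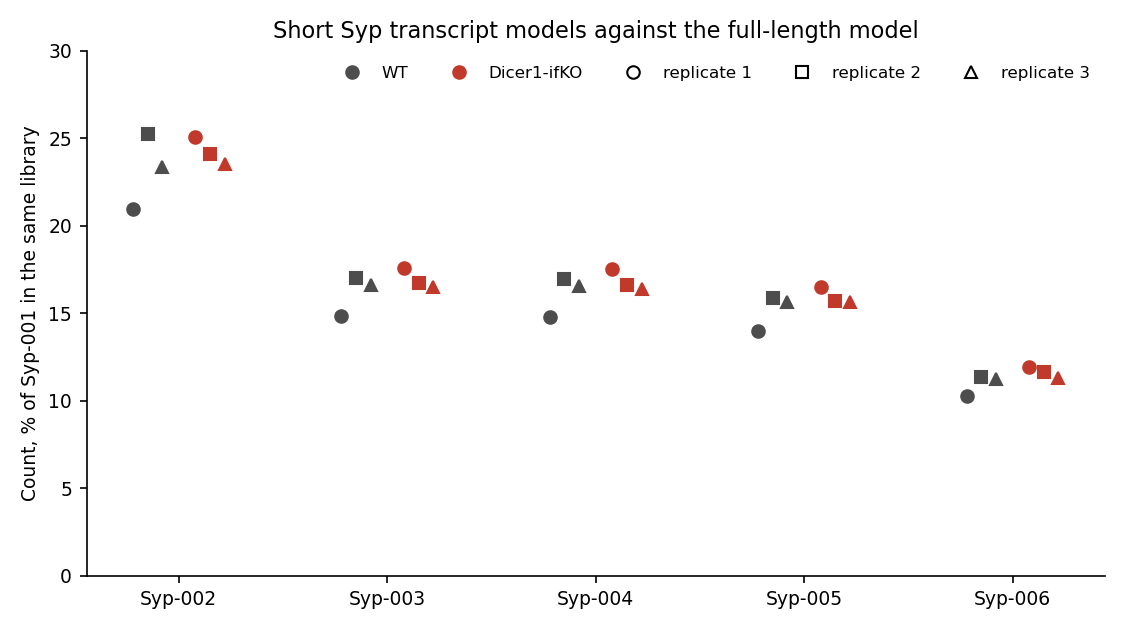
Count of each short Syp model as a percent of the count of the full-length model Syp-001 in the same library (y axis from 0); grey is WT, red Dicer1-ifKO, shapes are replicates. The grey circle, WT replicate 1, is the lowest point of every model, at 20.98% for Syp-002.

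Other membrane genes of the vesicle gave no call either, and DESeq2 called 0 in this and in each of the next lists. Of 22 listed genes 21 were tested, 0 passed, 10 were positive and 11 negative, and the median log2 fold change was -0.03. An unadjusted edgeR p below 0.05 was found for 4 of the 21, against 10.4% of all genes. Of the 21, 3 were higher and 0 lower in every Dicer1-ifKO library, against 7.99% and 8.07% of all genes. Syt1, the calcium sensor of fast release, had 1304, 1296 and 1236 CPM in WT and 1386, 1357 and 1394 in Dicer1-ifKO (log2 fold change 0.11, SE 0.04). Its sister Syt2 had 0.28 (SE 0.09), Slc6a17, a vesicular amino acid transporter, 0.10 (SE 0.04), and Vamp1, a vesicle SNARE protein, -0.13 (SE 0.05). The adjusted p of these 4 lay between 0.278 and 0.398 in edgeR.

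Kinases, phosphatases and partners of synapsins gave 0 calls among 17 tested genes as well, but 6 had an unadjusted p below 0.05, against 10.4% of all genes. Cdk5, a kinase of synapsin I, was at 94.4, 87.3 and 93.0 CPM in WT and 81.1, 79.2 and 82.4 in Dicer1-ifKO (log2 fold change -0.18, SE 0.05, edgeR adjusted p 0.182). Camk2d, a subunit of the calcium/calmodulin kinase that phosphorylates synapsin I, was at 35.6, 35.8 and 35.6 CPM in WT and 41.4, 42.7 and 39.9 in Dicer1-ifKO (0.21, SE 0.06, edgeR adjusted p 0.197). Ppp3cb, a catalytic subunit of calcineurin, had -0.14 (SE 0.04) and Ppp2ca, a catalytic subunit of protein phosphatase PP2A, -0.13 (SE 0.04). Of the 17, 3 were higher and 5 lower in every Dicer1-ifKO library, against 7.99% and 8.07% of all genes, and the median log2 fold change was 0.00.

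Vesicle endocytosis genes had 0 calls among 20, 1 with an unadjusted p below 0.05 (against 10.4% of all genes) and a median of -0.01. That gene was Pacsin1, a membrane-bending partner of dynamin (0.09, SE 0.04). The next by p were Amph, amphiphysin (-0.10, SE 0.05), Itsn1, an endocytic scaffold (0.10, SE 0.05), and Sh3gl2, endophilin A1 (-0.09, SE 0.05). The adjusted p of these 4 were 0.479 to 0.536 in edgeR. Of the 20, 1 was higher and 3 lower in every Dicer1-ifKO library, against 7.99% and 8.07% of all genes.

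Each synapsin gene holds a gene of a metalloproteinase inhibitor within its introns, on the other strand. Timp3, inside Syn3, had 63.1, 64.6 and 62.8 CPM in WT and 66.1, 65.6 and 71.4 in Dicer1-ifKO (log2 fold change 0.09, SE 0.05, edgeR adjusted p 0.589). It was higher in every Dicer1-ifKO library, as were 7.99% of all genes. Its host Syn3 was so after TMM scaling, and nearly tied between genotypes with the authors' scaling factors. Timp4, inside Syn2, had 20.9 ± 0.26 and 20.3 ± 0.34 CPM (SD, n = 3), with -0.04 (SE 0.08). Timp1, inside Syn1, was scarce, at 13 to 24 counts per library. Timp4 shares 90 exon bases (3.32%) with Syn2, and no shared exon bases were found between Timp3 and Syn3 or Timp1 and Syn1 in the models used.

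The genes whose log2 CPM followed those of Syp most closely over the 6 libraries, among 6678 genes whose log2 CPM averaged 5 or more, included Stoml1 (Pearson's r 0.987) and Tspyl1 (0.985). For Syn1 they were Narfl (0.995), Dctn3 (0.993) and Cpt1c (0.992). Between members, r was 0.828 for Syp with Syn1 and 0.818 for Syp with Synpr, but -0.39 for Syp with Sv2a. These values describe 6 libraries that differ in depth and in their relation to transcript length.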

How the data were processed

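Hippocampal mRNA was sequenced from 3 WT and 3 Dicer1-ifKO libraries, and each was counted as 1 replicate. Libraries of pooled RNA were made with a stranded mRNA kit, per the labels' protocols. The submitters' processing notes name the aligners TopHat2 2.0.6 and Bowtie2 2.0.5, further SAMtools 0.1.18, CASAVA 1.8.2 and DESeq2, and as builds mm10 and GRCm38. For the read counter, annotation release and strand setting the sources used here give nothing. Each of 76938 transcripts has a raw count and, per the file headers, a normalised value in the tables the authors deposited. Dividing a library's counts by a single factor gives its deposited normalised signal (0.72, 0.994 and 1.01 in WT, 0.967, 1.13 and 1.28 in Dicer1-ifKO). Long models of a gene can hold nearly the same counts (99.3% to 99.6% of the representative's for the other Sv2b model) and shorter ones a part of them, so 1 transcript per symbol was used.

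Counts were tested with the quasi-likelihood F-test of edgeR 4.0.16 (R 4.3.3) on genotype alone, after TMM scaling and filterByExpr with a minimum count of 10, and p-values were adjusted by Benjamini-Hochberg over 17405 genes. The SE is the log2 fold change over the root of F, and 95% intervals use the model's degrees of freedom. The common biological coefficient of variation was 0.0464, and 3 counts correspond to 0.147 to 0.255 CPM. Exon lengths and UTRs come from GENCODE M21 (GRCm38), in which 84.2% of the deposited transcripts have identical coordinates. For Syn2, Sv2b and Sv2c the M21 ends were moved to the deposited ends for lengths. Of the listed microRNAs, miR-124-3p and miR-485-5p were not searched.

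The test was also tried on counts simulated with means and dispersions taken from these data. It recovered 50.8% of genes changed 1.25-fold and 94.4% of those changed 2-fold. Alternatives were DESeq2 1.42.0, RLE factors, no filter, a sum over transcripts, a replicate block, a length offset (loess span 0.5) and each library left out. The length offset together with leaving out WT replicate 1, the overlap of groups under other settings and the ratios between relatives were added after the data were seen. The members and gene lists were chosen with earlier results of these data known. The genes named are the 10 members, the label checks, up to 4 genes with the smallest p in each list, transcripts of mean count 50 or more that differ by over 1% from the representative, and the 3 genes most like Syp and Syn1, of which 1 is not reported here; Calb1 and Plk5 were named after their values were seen. A planned comparison of protein sequences was not run.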

Additional observations from a re-analysis of the deposited data

How the results depend on the processing

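No member was called by edgeR or DESeq2 under any of the 13 alternatives; the lowest adjusted p was 0.184 (Synpr without WT replicate 2). Of 130 member results under alternatives, 123 kept their direction and 7 reversed, in Sv2b, Sv2c and Syngr3. The log2 fold change of Sv2b (-0.02) ranged from -0.0509 to 0.0132 with 1 library left out, positive without WT replicate 2 (0.0132) and Dicer1-ifKO replicate 2 (0.00275), and was -0.0558 with the length offset. That of Sv2c (0.04) ranged from -0.0231 (without WT replicate 1) to 0.0775, and was -0.0249 with the length offset and -0.0549 with both. That of Syngr3 (0.01) ranged from -0.0255 (without WT replicate 3) to 0.0804, and was negative also without WT replicate 2. The members' median of 0.03 was 0.00 (0.00077) with the length offset and 0.0048 to 0.024 with 1 library left out. The count of genes called in all, 28, was 63 with DESeq2, 151 without a filter, 7 with the sum over transcripts, 14 with the length offset and without WT replicate 1, and 6 to 105 with 1 library left out (the 105 without WT replicate 2, the 6 without Dicer1-ifKO replicate 1; 14 without WT replicate 3, 18 when either WT replicate 1 or Dicer1-ifKO replicate 2 was dropped, 26 for Dicer1-ifKO replicate 3). Members whose groups did not overlap were 3 to 5 of 10 with 1 library left out, which can only add to them. The share of all genes was 23.9% to 30.3% in these settings. With the replicate block 22 genes were called and the members' median was 0.03. Same-numbered libraries did not deviate together (r -0.07, 0.03 and -0.09). With 3 libraries per genotype these values cannot exclude that the numbers pair samples. Depth limits Sv2c most, at 196 to 385 counts per library.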
